A study of Homo sapiens with 72 samples.

Results

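The proteasome subunit genes are the protein-coding genes whose GENCODE symbol begins with PSMA, PSMB, PSMC or PSMD followed by a number. Matched by Ensembl identifier, they were 39 of the 60371 genes listed for each library, 19 in the 20S core particle and 20 in the 19S regulatory particle or its assembly, and 37 passed the filter on low counts. Expression was measured by population RNA-seq in U2OS, a human osteosarcoma cell line, in 72 wells collected 12 h after treatment. The vehicle DMSO was given to 18 wells, and each of 6 compounds was given to 3 wells at 100 nM, 3 at 1000 nM and 3 at 10000 nM. The compounds were Triptolide, an inhibitor of the transcription factor TFIIH, Homoharringtonine, an inhibitor of the elongating ribosome, the JNK inhibitor Pyrazolanthrone, the ABL inhibitor Nilotinib, the glucosidase inhibitor Miglitol and the AKT inhibitor MK-2206. All groups were grown in the same medium with fetal bovine serum, and the cells are one established line, so the wells are separate cultures of one cell source and p-values measure the spread between wells, which may be technical.

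The proteasome degrades proteins that carry chains of ubiquitin. Its barrel-shaped core is built of outer rings of alpha subunits (PSMA) and inner rings of beta subunits (PSMB), and PSMB5, PSMB6 and PSMB7 carry the cutting sites, which PSMB8, PSMB9 and PSMB10 replace in the immunoproteasome. A regulatory particle sits on the core: its base holds the ATPases (PSMC) that unfold the substrate and pull it in, and its lid holds most PSMD subunits, among them the deubiquitinase PSMD14. NFE2L1, a transcription factor that is itself degraded by the proteasome, is known to raise subunit genes together when degradation fails, through antioxidant response elements in their promoters.

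Sums of expected counts, RSEM's estimates of reads per gene, were 70767 in Triptolide 100 nM replicate 2, 460014 in DMSO replicate 10 and 9628355 in Triptolide 1000 nM replicate 1, and over 10000000 in the other wells. Libraries also differed in how strongly a gene's level followed the GC content of its transcripts. This GC slope, in log2 units for every 10 percentage points of GC and relative to the DMSO mean, ran from −0.43 to 0.30 over the DMSO wells. In Homoharringtonine 10000 nM all 3 wells lay below that range, at −0.62 to −0.48. Of the 6 osteoblast and mesenchymal markers, SPARC, VIM and COL1A1 had median levels of 2137, 1868 and 452 TPM in DMSO, RUNX2 and ALPL were at 3.81 and 3.79 TPM, and COL1A2 was at 0.07 TPM. The blood markers CD3E and HBB had a median of 0 TPM in DMSO, and PTPRC 0.035 TPM.

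Promoter stretches of 6 members are shown because these genes carry the largest or most opposed responses described below, or hold the element through which NFE2L1 is known to act. They come from RefSeq (GRCh38.p14), which gave windows from 250 bases before to 50 bases after the start for 34 of the 39 members, 41 windows in all. Capitals mark the antioxidant response element core TGACNNNGC in the first 4 and CCAAT in the last 2. Each stretch lies upstream of its gene: PSMD12 at chr17:67366698-67366757 (minus strand), PSMD5 at chr9:120843012-120843071 (minus), PSMB3 at chr17:38752622-38752681 (plus), PSMD3 at chr17:39980747-39980806 (plus), PSMB5 at chr14:23035340-23035399 (minus) and PSMD7 at chr16:74296601-74296660 (plus). In GENCODE release 44 the PSMD5 stretch overlaps exons of the pseudogene CUTALP on the other strand, the PSMD7 stretch overlaps exons of the divergent long noncoding RNA PSMD7-DT, and the other 4 overlap no exon.
PSMD12: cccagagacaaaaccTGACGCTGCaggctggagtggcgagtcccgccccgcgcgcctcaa
PSMD5: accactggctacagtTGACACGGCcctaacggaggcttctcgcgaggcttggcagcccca
PSMB3: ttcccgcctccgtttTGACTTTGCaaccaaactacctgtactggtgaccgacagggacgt
PSMD3: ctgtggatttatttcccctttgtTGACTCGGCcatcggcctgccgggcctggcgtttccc
PSMB5: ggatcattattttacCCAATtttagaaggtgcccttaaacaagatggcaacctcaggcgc
PSMD7: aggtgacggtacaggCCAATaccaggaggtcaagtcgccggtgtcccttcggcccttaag
Read on both strands, TGACNNNGC was present in 10 of the 41 member windows (24.4%) and in 13.3% of all 35116 windows, and CCAAT in 18 (43.9%) and 34.6%. The 10 genes were PSMA4, PSMB3, PSMB9, PSMC4, PSMC5, PSMD1, PSMD12, PSMD3, PSMD5 and PSMD9. Matches of each motif were counted whether or not they overlapped the other motif, and a match describes letters, not binding.

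In DMSO wells most subunits were abundant, and levels per transcript length differed widely although the subunits of one particle are used in equal numbers. The highest was PSMD2, a scaffold of the 19S base, with a median of 997 TPM over 18 wells (range 783 to 1073). The core subunits PSMA7 (790 TPM), PSMB3 (676 TPM) and PSMB4 (510 TPM) followed, and PSMC3 (503 TPM) was the highest ATPase. Of the standard catalytic genes, PSMB6 had a median of 288 TPM, PSMB5 of 282 TPM and PSMB7 of 225 TPM, and their ranges over wells overlapped. The immunoproteasome genes were lower, with medians of 65.1 TPM for PSMB10, 58.7 TPM for PSMB8 and 19.6 TPM for PSMB9. The range of PSMB9 (0 to 27.9 TPM) lay wholly below that of PSMB8 (31.8 to 65.3 TPM), whereas PSMB10 and PSMB8 overlapped. The lowest of the genes that passed the filter was PSMD5, an assembly chaperone of the 19S base, at 15.7 TPM. PSMA8, known from testis, and PSMB11, known from thymus, had medians of 0 TPM, with at most 2 and 33 expected counts in any well, and neither passed the filter. The median member was at 164 TPM in the core particle and 183 TPM in the regulatory particle.

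**Figure D1:**
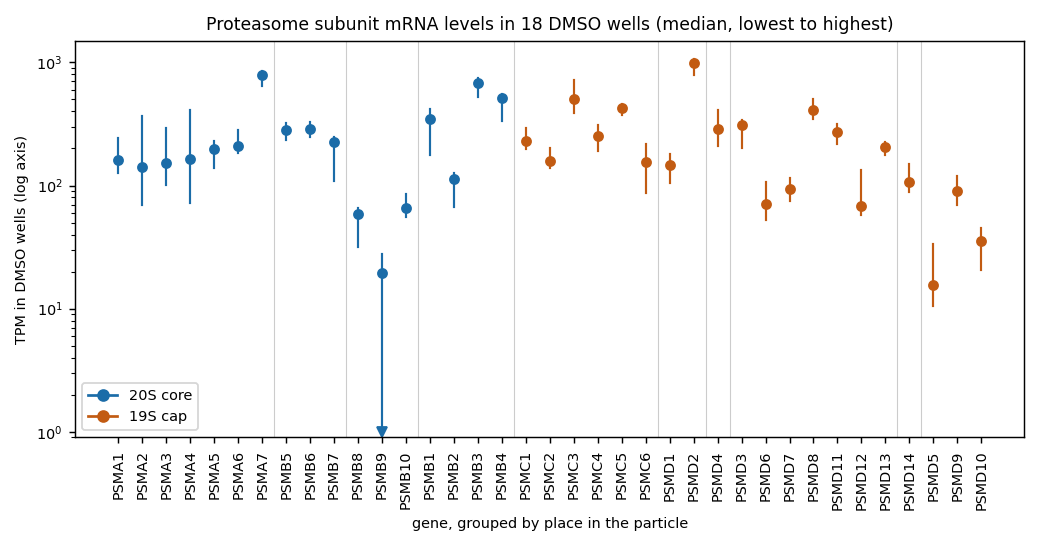
Levels in TPM (log axis) of the 37 subunit genes that passed the filter, in the 18 DMSO wells: the point is the median, the line runs from the lowest to the highest well, and the triangle marks a lowest value of 0. Genes are grouped by place in the particle (blue, 20S core; orange, 19S). PSMD2 is highest at a median of 997 TPM, PSMB9 and PSMD5 are lowest at 19.6 and 15.7 TPM, and PSMA4 and PSMA2 have the widest lines among the abundant genes.

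Some members varied several-fold between wells that all received vehicle. PSMA4 and PSMA2, subunits of the alpha ring, had coefficients of variation of 52.3% and 49.5% in DMSO, against 7.10% for PSMA7 of the same ring and 5.70% for the ATPase PSMC5. Over the 53 wells of DMSO and of the 4 compounds other than Triptolide and Homoharringtonine with more than 10000000 counts, PSMA4 ran from 36.6 to 411 TPM, an 11.2-fold range, and PSMA2 over a 9.97-fold range. Their log2 levels followed the GC slope of the library, with Pearson's r of −0.977 for PSMA4, −0.971 for PSMA2 and −0.973 for PSMA3, while the transcripts of these genes have 40.5%, 38.6% and 40.2% GC. Such values were common among genes: r was below −0.8 for 10 of 37 members and 22.4% of all genes, and above 0.8 for 7 members and 8.84% of all genes. The points share libraries and base composition, so these r are descriptions without a test. PSMB5 (52.9% GC) had r = 0.665 and ran over only a 1.45-fold range, from 222 to 322 TPM. Because this library property moved with the members, counts of calls below are also given from a fit with the GC slope as a covariate.

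**Figure D2:**
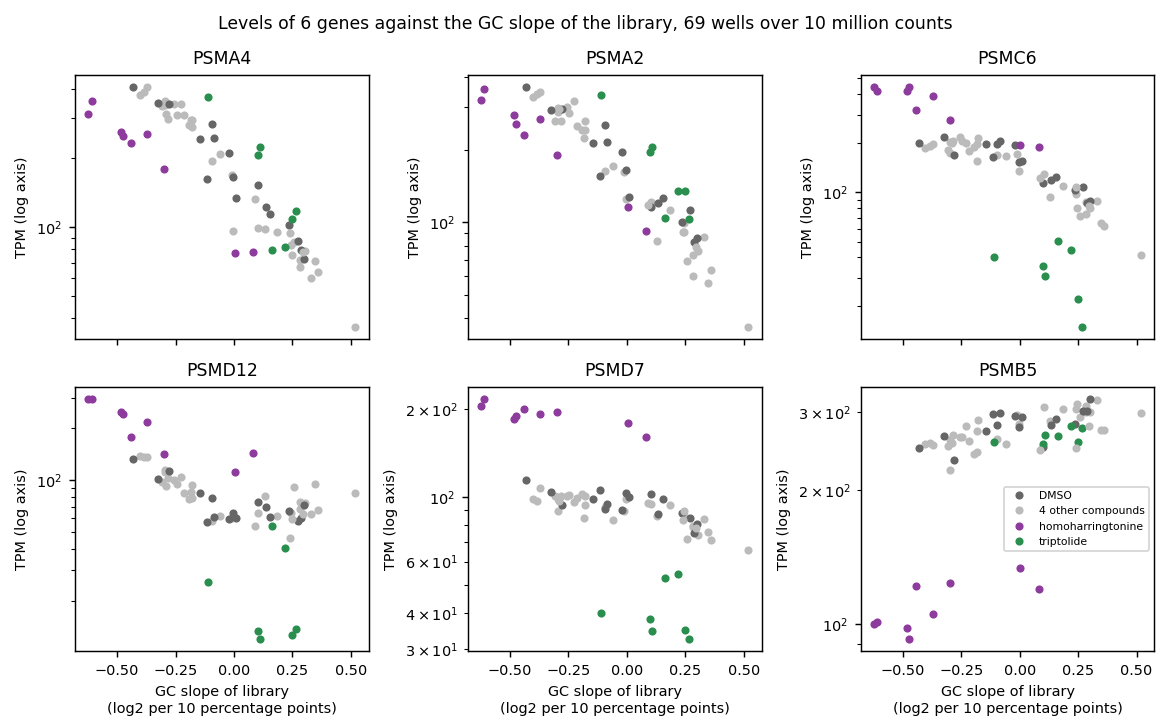
Level in TPM (log axis) of 6 subunit genes against the GC slope of each library (log2 per 10 percentage points of GC), over the 69 wells with more than 10000000 counts, coloured by treatment. PSMA4 and PSMA2 fall with the slope in every treatment, whereas the Homoharringtonine wells of PSMB5 and most Triptolide wells of PSMD12 lie below the other wells at the same slope. On this scale the Triptolide wells of PSMB5 lie within the DMSO range of 234 to 322 TPM, not above it.

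As a share of all expected counts, the 39 genes together held 0.757% ± 0.0372 (SD, n = 18) in DMSO. The share was 0.901% ± 0.0341, 0.863% ± 0.0277 and 0.878% ± 0.0036 (n = 3 each) in Triptolide at 100 nM, 1000 nM and 10000 nM, and no Triptolide well lay in the DMSO range of 0.668% to 0.820%. In Homoharringtonine it was 0.867% ± 0.0175, 0.816% ± 0.0175 and 0.788% ± 0.0120. The particles differed: the core genes held 0.274% of counts in DMSO, 0.329% to 0.340% over the Triptolide doses and 0.246% to 0.269% over the Homoharringtonine doses, whereas the 19S genes held 0.483%, 0.534% to 0.561% and 0.542% to 0.599%. All Homoharringtonine wells of the core share lay within its DMSO range of 0.207% to 0.303%, whose lowest value comes from the library of 460014 counts. Without that library the range was 0.241% to 0.303%. Homoharringtonine 1000 nM replicate 1 (0.240%) and 10000 nM replicate 3 (0.238%) lay below it. As a share of TPM the 19S genes held 0.484% in DMSO and 0.507%, 0.469% and 0.463% at the rising doses of Triptolide. At 1000 nM and 10000 nM all Triptolide wells lay within the DMSO range of 0.432% to 0.519%, so no change is shown there on this scale. In Homoharringtonine the 19S genes held 0.578% to 0.597% of TPM. The core genes held 0.443% of TPM in DMSO, 0.470% to 0.478% in Triptolide and 0.420% to 0.427% in Homoharringtonine. Except for Triptolide 1000 nM replicate 3 (0.534%), all these treated wells lay within the DMSO range of 0.340% to 0.4955%. Without the library of 460014 counts that range began at 0.412%. Homoharringtonine 1000 nM replicate 1 (0.381%) and 100 nM replicate 3 (0.400%) then lay below it. Shares of a library say nothing of amounts per cell, and in bulk wells fewer cells and less RNA per cell cannot be told apart.

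**Figure D3:**
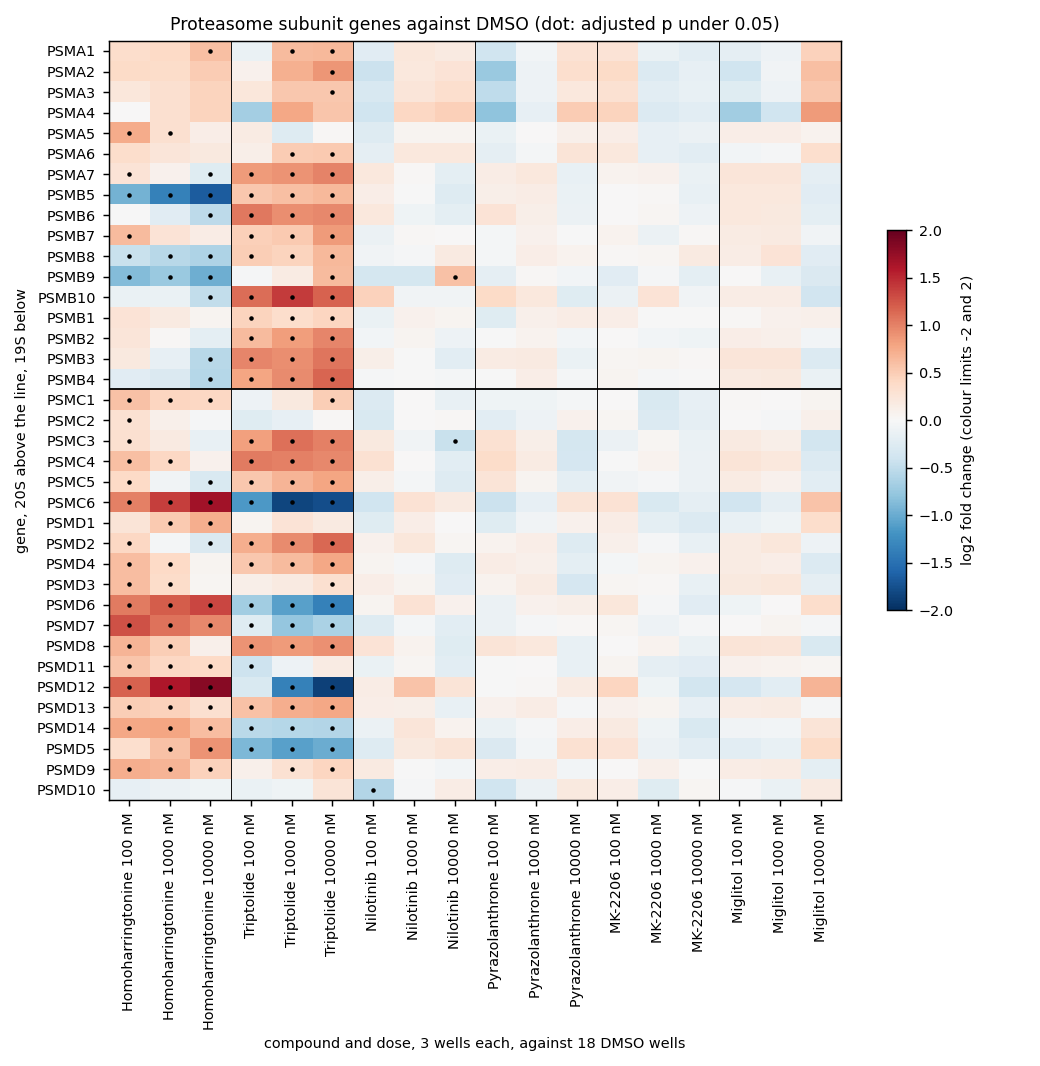
Log2 fold change against DMSO of the 37 subunit genes that passed the filter (one line each, by role, 20S above the black line and 19S below) for the 6 compounds at 3 doses, from the edgeR fits with TMM scaling; a dot marks adjusted p under 0.05. Homoharringtonine and Triptolide columns carry opposite colours for PSMB5, PSMC6, PSMD6, PSMD7 and PSMD12, and the columns of the other 4 compounds are pale. Under scaling by mitochondrial mRNAs all Triptolide columns at 1000 nM and 10000 nM would be negative.

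Homoharringtonine blocks translation, and the comparison with DMSO asks which subunit mRNAs change when protein synthesis stops. Most genes of the regulatory particle rose, and the catalytic genes PSMB5, PSMB8 and PSMB9 of the core fell. Of 37 members, 20, 16 and 12 were higher at 100 nM, 1000 nM and 10000 nM, beside 31.1%, 35% and 36.7% of all genes tested, and 3, 3 and 10 were lower, beside 32.3%, 33.4% and 37.2% of all genes (edgeR quasi-likelihood test, adjusted p under 0.05). By particle, 17, 15 and 11 of the 20 regulatory genes were higher and 0, 0 and 2 lower (by edgeR at unadjusted p and by DESeq2 also 0 at 100 nM and 1000 nM), while 3, 1 and 1 of the 17 core genes tested were higher and 3, 3 and 8 lower. The median log2 fold change of the members was 0.35, 0.32 and 0.09, against −0.03, −0.01 and −0.05 for all genes. At 10000 nM, where all libraries had a GC slope below the DMSO range, 7 of the 12 higher and 5 of the 10 lower calls were also made with the GC slope as a covariate, and 1, PSMA1, changed sign (0.61 against −0.28). At 1000 nM 13 of 16 higher and 3 of 3 lower calls were also made with it, and at 100 nM 19 of 20 and 3 of 3. Of all genes tested, that fit called 34.2%, 36.4% and 32.8% higher and 36.9%, 38.0% and 38.8% lower at the rising doses.

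Of the catalytic genes, PSMB5, the subunit with chymotrypsin-like activity, fell most. It was at 145 to 231 CPM with a median of 194 over the DMSO wells. In Homoharringtonine it was at 88.5, 91.4 and 105 CPM at 100 nM, at 87.0, 67.5 and 64.2 CPM at 1000 nM and at 62.5, 57.5 and 61.0 CPM at 10000 nM. All 9 treated wells lay below every DMSO well. The log2 fold change was −0.94 ± 0.12, −1.35 ± 0.13 and −1.66 ± 0.12 (SE, n = 3 against 18, edgeR adjusted p = 2.3e-07, 3.0e-09 and 4.9e-12), and −0.80, −1.18 and −1.40 with the GC covariate. The other standard catalytic genes had smaller values. PSMB6, with caspase-like activity, had log2 fold changes of −0.01, −0.22 and −0.53 and passed the test only at 10000 nM (edgeR adjusted p = 1.0e-04). PSMB7, with trypsin-like activity, rose by 0.64 on the log2 scale at 100 nM (edgeR adjusted p = 8.1e-05) and was at 0.28 and 0.14 at the higher doses, which did not pass.

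Among the immunoproteasome genes, PSMB8 fell at every dose, with log2 fold changes of −0.44, −0.56 and −0.62 (edgeR adjusted p = 0.0044, 0.0010 and 1.0e-04). Its wells at 1000 nM were at 31.1, 26.8 and 23.8 CPM, inside the DMSO range of 22.0 to 47.2 CPM, whose lowest value comes from the library of 460014 counts. PSMB9 fell as well, by 0.87, 0.74 and 0.98 on the log2 scale, from a DMSO median of 8.17 CPM to between 3.74 and 6.47 CPM over the 9 wells. PSMB10 passed the test only at 10000 nM, with a log2 fold change of −0.49, and was at 0.01 with the GC covariate. The gene models of PSMB8 and PSMB9 overlap on opposite strands, and whether the counting used strand is not given in the sources used here.

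In the rest of the core, changes were small. PSMA5 of the alpha ring rose by 0.74 on the log2 scale at 100 nM and by 0.32 at 1000 nM, and did not pass the test at 10000 nM (0.13). PSMA7 was higher at 100 nM (0.28), not called at 1000 nM (0.08, edgeR adjusted p = 0.52) and lower at 10000 nM (−0.23, or 0.01 and not called with the GC covariate). PSMA1 was at 0.35, 0.40 and 0.61, and passed only at 10000 nM. The non-catalytic PSMB4 and PSMB1 were the lowest and highest of their group at 1000 nM, at −0.28 and 0.17, and neither passed there, while PSMB4 (−0.56) and PSMB3 (−0.55, or −0.12 and not called with the GC covariate) fell at 10000 nM.

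In the regulatory particle the lid genes rose, 7, 7 and 5 of 7 over the 3 doses. PSMD12, a scaffold subunit of the lid, was at 43.0 to 122 CPM in DMSO with a median of 57.0, and at 187, 148 and 103 CPM, 114, 198 and 300 CPM, and 225, 206 and 287 CPM at the rising doses. At 10000 nM all wells lay above the DMSO range, and at each lower dose 1 well lay within it. The log2 fold changes were 1.18, 1.62 and 1.82 (SE 0.24, 0.25 and 0.23, edgeR adjusted p = 1.8e-04, 4.3e-06 and 1.3e-07), and 0.75, 1.03 and 0.86 with the GC covariate. The spread at 1000 nM moved with the library: wells with GC slopes of 0.0814, −0.371 and −0.609 had 114, 198 and 300 CPM. PSMD7, which pairs with the deubiquitinase in the lid, was tighter, at 82.4 to 110 CPM in DMSO and 219 to 229, 183 to 222 and 182 to 199 CPM in Homoharringtonine. No treated well overlapped the DMSO wells, and its log2 fold changes of 1.27, 1.09 and 0.96 were 1.21, 1.0 and 0.78 with the covariate. PSMD6 rose by 1.04, 1.21 and 1.34 on the log2 scale, again with all 9 wells above DMSO. The lowest lid gene at 1000 nM was PSMD3 at 0.37, which also passed (edgeR adjusted p = 0.018).

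PSMD14, the deubiquitinase that removes ubiquitin chains, rose by 0.77, 0.80 and 0.62 on the log2 scale, and at 10000 nM was at 0.07 with the GC covariate. The ATPase PSMC6 was at 55.3 to 145 CPM in DMSO and at 233, 185 and 122, 124, 256 and 339, and 289, 273 and 341 CPM over the doses. Its log2 fold changes of 1.0, 1.38 and 1.68 were 0.51, 0.71 and 0.60 with the covariate and passed in both fits. The other 5 ATPases were between −0.07 (PSMC5) and 0.43 (PSMC1) at 1000 nM. The ubiquitin receptor PSMD4 rose at 100 nM (0.62) and 1000 nM (0.41) only. Of the large base subunits, PSMD1 rose at 1000 nM (0.52) and 10000 nM (0.73), a difference not called with the covariate, whereas PSMD2 rose at 100 nM (0.41) and fell at 10000 nM (−0.29, or −0.27 and not called with the covariate). Among the assembly chaperones of the base, PSMD9 rose at every dose (0.73, 0.68 and 0.47), PSMD5 at the higher doses (0.58 and 0.90, not called with the covariate), and PSMD10 at none (−0.17, −0.12 and −0.09).

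**Figure D4:**
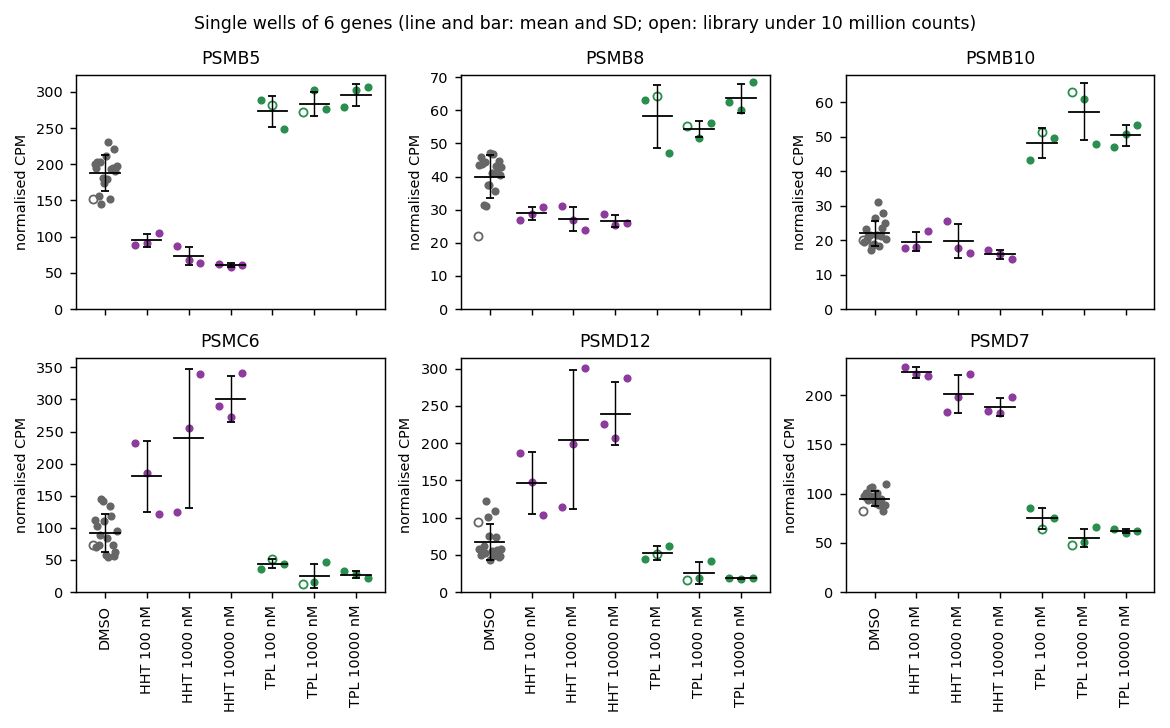
TMM-normalised CPM per well of PSMB5, PSMB8, PSMB10, PSMC6, PSMD12 and PSMD7 in DMSO, Homoharringtonine (HHT) and Triptolide (TPL) at each dose, with a line and bar for the mean and SD; open circles are wells under 10000000 counts. PSMB5 wells lie below every DMSO well in Homoharringtonine and above every DMSO well in Triptolide, and PSMC6 and PSMD7 wells at 1000 nM and 10000 nM lie below DMSO in Triptolide. The upward Triptolide differences hold under TMM scaling and turn downward under scaling by mitochondrial mRNAs, and on the TPM scale the Triptolide wells of PSMB5 lie within the DMSO range.

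Triptolide stops initiation by RNA polymerase II, and the comparison with DMSO asks which mRNAs gain or lose share when transcription is blocked. Under TMM scaling most core genes were higher, and regulatory genes were called in both directions, whereas under scaling by the 13 mitochondrial mRNAs, which are made by another polymerase, 33, 37 and 37 of 37 members were lower at 100 nM, 1000 nM and 10000 nM and none higher. That scaling moved the median of all genes by −1.65, −2.47 and −2.75 on the log2 scale, and relative to that median the members stood 0.39, 0.74 and 0.75 higher, against 0.32, 0.73 and 0.79 under TMM. A change of scaling moves all genes of a well alike, so this offset is nearly fixed by arithmetic and is no separate check. Under TMM 17, 20 and 25 of 37 members were higher, beside 24.5%, 28.8% and 32.2% of all genes, and 6 at each dose were lower, beside 32.3%, 38.6% and 39.7%. In single wells the scale mattered too: in TMM-normalised CPM 11, 17 and 21 members lay above all DMSO wells, beside 7.87%, 17.4% and 23.9% of all genes, and 3, 4 and 6 below, beside 18.9%, 23.6% and 25.4%, whereas in TPM 5, 4 and 7 lay above, beside 2.63%, 4.16% and 6.05% of all genes, and 5, 10 and 11 below, beside 24.8%, 31.2% and 36.2%. Upward Triptolide values below are therefore tied to TMM scaling. The 100 nM counts of members outside the DMSO wells include the library of 70767 counts. Of the core genes 10, 12 and 15 of 17 were higher under TMM and 0 lower, by edgeR at adjusted or unadjusted p under 0.05 and by DESeq2. Of the regulatory genes 7, 8 and 10 of 20 were higher and 6 lower at each dose. The calls were also made with the GC covariate in every case but 1, PSMD7 at 100 nM, in a fit that called 28.6%, 32.6% and 35.9% of all genes higher and 34.2%, 40.7% and 41.1% lower. Without the libraries under 10000000 counts 18, 23 and 26 members were higher and 5, 6 and 6 lower.

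PSMB10 had the largest upward value under TMM, a difference that is −1.08 at 1000 nM under mitochondrial scaling. It was at 17.1 to 30.9 CPM in DMSO and at 43.2, 51.3 and 49.8 CPM, 63.1, 60.9 and 47.8 CPM, and 47.2, 50.7 and 53.4 CPM at the rising doses. All treated wells lay above every DMSO well. The replicate 2 value at 100 nM, 51.3 CPM here and 282 CPM for PSMB5 below, comes from the library of 70767 counts. The log2 fold changes were 1.11 ± 0.15, 1.40 ± 0.13 and 1.19 ± 0.12 (SE, edgeR adjusted p = 7.0e-07, 8.2e-10 and 4.0e-09). PSMB8 was higher at each dose under TMM (0.49, 0.44 and 0.64), but was at −0.01 at 1000 nM with library sizes alone and −2.04 with mitochondrial scaling. PSMB9 passed only at 10000 nM (0.63). The standard catalytic genes were higher at every dose under TMM and lower under mitochondrial scaling at 1000 nM: PSMB5 by 0.55, 0.61 and 0.64, PSMB6 by 1.06, 0.94 and 0.96, and PSMB7 by 0.48, 0.52 and 0.85 on the log2 scale. PSMB5, the gene that fell most in Homoharringtonine, was at 288, 282 and 249, 273, 302 and 276, and 279, 303 and 307 CPM, above every DMSO well, but in TPM it was between 255 and 285 over these 9 wells, within the DMSO range of 234 to 322. PSMB10 stayed above DMSO on that scale at 1000 nM and 10000 nM, with 94.6 to 134 TPM and 91.4 to 95.7 TPM against 55.7 to 84.9 TPM.

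In the rest of the core, PSMA7 was the highest alpha subunit at 1000 nM under TMM, with log2 fold changes of 0.85, 0.90 and 1.0, and −1.57 at 1000 nM under mitochondrial scaling. PSMA5 was the lowest and passed at no dose (0.17, −0.25 and 0.03). PSMB4 was at 0.79, 0.94 and 1.16 and PSMB1 at 0.44, 0.35 and 0.42, all called under TMM and both negative at 1000 nM under mitochondrial scaling. In the regulatory particle PSMD2 rose by 0.73, 0.95 and 1.15 and PSMC3 by 0.82, 1.09 and 1.01 on the log2 scale under TMM, with PSMD8 at 0.90, 0.85 and 0.92, and all 3 were negative at 1000 nM under mitochondrial scaling. PSMD4 was at 0.54, 0.63 and 0.77, PSMD9 passed at 1000 nM and 10000 nM (0.30 and 0.42), and PSMD1 passed at no dose (0.06, 0.27 and 0.17). PSMD10 was not called (−0.14, −0.08 and 0.26).

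The genes that fell were the same 6 at 1000 nM and 10000 nM, PSMC6, PSMD5, PSMD6, PSMD7, PSMD12 and PSMD14, and under mitochondrial scaling they were again among the genes called lower. All 6 also lay below every DMSO well in TPM at both doses. PSMC6 was at 36.6, 51.3 and 44.4 CPM, 13.2, 15.7 and 46.6 CPM, and 32.0, 28.4 and 21.5 CPM, below every DMSO well. The 51.3 CPM comes from the library of 70767 counts. The log2 fold changes of PSMC6 were −1.15, −1.83 and −1.77 (SE 0.33, 0.36 and 0.30), and −0.69, −1.56 and −1.39 with the GC covariate. PSMD12 did not pass at 100 nM (−0.30) and fell by 1.35 and 1.86 at the higher doses, where its wells were at 15.6, 18.8 and 41.9 CPM and at 19.1, 17.7 and 18.5 CPM. PSMD6 fell by 0.69, 1.08 and 1.35, PSMD5 by 0.90, 1.09 and 1.0, PSMD14 by 0.54, 0.57 and 0.59, and PSMD7 by 0.24, 0.77 and 0.63. At 1000 nM the deepest library, replicate 3, had the highest value of PSMC6, PSMD5, PSMD6, PSMD7, PSMD12 and PSMD14, and it also had the lowest GC slope of the 3, −0.111.

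Comparisons of both compounds with DMSO share the same control wells, so the compounds were also tested directly against each other at each dose. Relative to Homoharringtonine, Triptolide had lower PSMC6, PSMD5, PSMD6, PSMD7, PSMD11, PSMD12 and PSMD14 at every dose and, under TMM, higher PSMB5, PSMB6, PSMB8, PSMB9, PSMB10, PSMB3, PSMB4, PSMB2, PSMA7, PSMC3 and PSMC4, while under mitochondrial scaling no member was higher. With the GC covariate, PSMC6, PSMD6 and PSMD7 were called lower and PSMB4, PSMB5, PSMB6 and PSMB10 higher at every dose, and the others lost the call at 1 or more doses. In counts 11, 13 and 23 of 37 members were higher in Triptolide at 100 nM, 1000 nM and 10000 nM, beside 29.7%, 27.9% and 41.4% of all genes, and 12, 8 and 8 lower, beside 35.8%, 38.9% and 47.0%. Under mitochondrial scaling 34, 35 and 36 were lower. At 1000 nM PSMC6 differed by −3.23 ± 0.57 (SE, 3 wells against 3, edgeR adjusted p = 0.0011), PSMD12 by −2.99 and PSMD6 by −2.30 on the log2 scale, and these were −2.06, −1.93 and −1.75 with the GC covariate. PSMB5 differed by 1.95 ± 0.18 (edgeR adjusted p = 2.7e-05) under TMM, and by 1.76 with the covariate. The GC slopes of the compounds differed too, from 0.101 to 0.249 in Triptolide and −0.623 to −0.476 in Homoharringtonine at 10000 nM, and there 14 of 23 higher and 5 of 8 lower calls were also made with the covariate, in a fit that called 23.1% and 25.7% of all genes. PSMD14 was among those lost at 10000 nM, with −1.13 without and −0.05 with it, and PSMD11 was another. At that dose slope and compound cannot be told apart. At 100 nM 5 of 11 higher and 6 of 12 lower calls were also made (21.1% and 26.8% of all genes), without PSMD5 and PSMD12, and at 1000 nM 11 of 13 and 7 of 8 (32.0% and 38.1%).

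**Figure D5:**
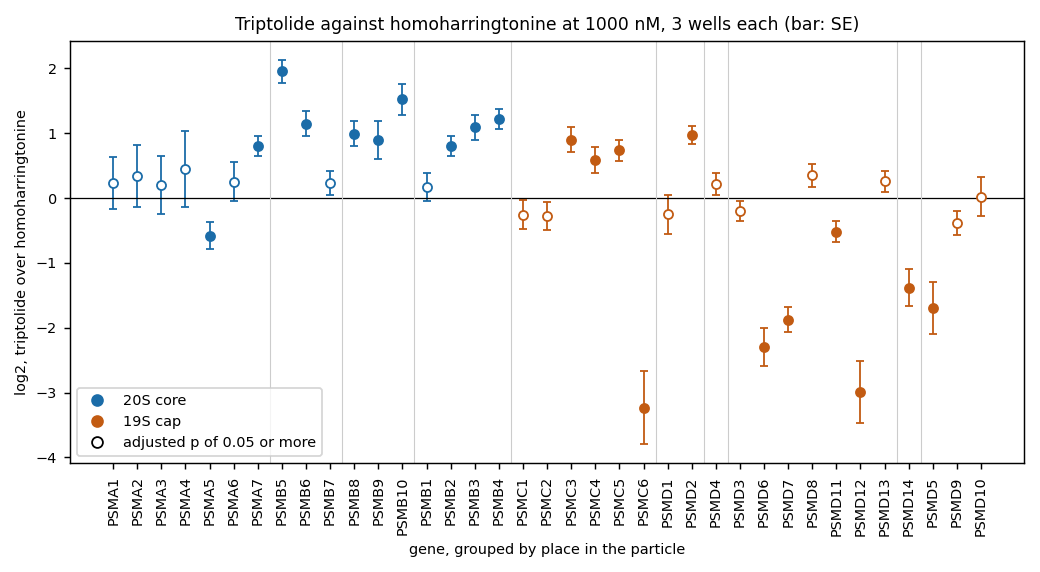
Log2 difference of Triptolide minus Homoharringtonine at 1000 nM for the 37 subunit genes, grouped by place in the particle (edgeR fit, TMM scaling, 3 wells against 3; bar, SE; open, adjusted p of 0.05 or more). PSMC6 (−3.23) and PSMD12 (−2.99) lie furthest below 0 and PSMB5 (1.95) furthest above it; under mitochondrial scaling no member is higher.

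Over the 9 treated wells of each compound, a trend on log10 dose was fitted, which says how values change for each 10-fold step between doses already tested. In Homoharringtonine 16 members declined with dose and 0 rose (1 at unadjusted p under 0.05, 0 by DESeq2), beside 22.9% and 21.1% of all genes, with the steepest slopes for PSMB3 (−0.38), PSMB5 (−0.37), PSMC5 (−0.37) and PSMD2 (−0.36). For PSMC5 and PSMD2 this runs from values above DMSO at 100 nM (0.41 for each) to values below it at 10000 nM (−0.31 and −0.29, neither called with the GC covariate). In Triptolide only PSMD12 had a trend, falling by 0.81 ± 0.16 (SE) per 10-fold dose (edgeR adjusted p = 0.0026), beside 17.8% of all genes falling and 6.93% rising; 0 members rose (4 at unadjusted p, 2 by DESeq2). The trends themselves differed for 16 members, 14 higher and 2 lower in Triptolide than in Homoharringtonine, beside 19% and 21.4% of all genes. With the GC covariate all 16 declines in Homoharringtonine, the PSMD12 trend in Triptolide and all 16 differences were also called, in fits that called 25.1% of all genes rising and 28.8% falling, 8.43% and 17.8%, and 23.9% and 24.2%. These counts fell when 1 replicate number was left out at every dose. The Homoharringtonine trend was called for 2 members, PSMC5 and PSMD2, without replicate 2 and for 6 without replicate 3. The upward difference was called for 7 and 2 members. Such fits also have fewer wells, so the fall does not show dependence on any single well.

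Few subunit genes were called in the other 4 compounds. Over their 12 comparisons edgeR called 3 differences, all in Nilotinib. At unadjusted p under 0.05 the most were 8 higher and 7 lower, in Miglitol 10000 nM, and DESeq2 called 3 lower in Pyrazolanthrone 10000 nM and 1 higher in Pyrazolanthrone 100 nM. Each of the 3 was also called with the GC covariate, with log2 fold changes of 0.77, −0.28 and −0.47 in the order below. At 10000 nM PSMB9 rose 1.51-fold (log2 0.59 ± 0.18, edgeR adjusted p = 0.030, wells at 11.6, 12.6 and 12.8 CPM), beside 7.97% of all genes rising, and PSMC3 fell 1.36-fold (edgeR adjusted p = 0.024), beside 6.39% falling. At 100 nM PSMD10 fell by 0.59 on the log2 scale (edgeR adjusted p = 0.036, wells from 9.60 to 21.6 CPM), beside 3.58% of all genes falling. Uncalled log2 fold changes reached −0.80 for PSMA4 in Pyrazolanthrone 100 nM and 0.86 for PSMA4 in Miglitol 10000 nM, the gene that followed the GC slope most closely, and the wells of those groups had slopes of −0.0045 to 0.348 and −0.372 to −0.256. Few genes of any kind were called in the groups without a called member: 3.35% higher and 4.3% lower in Pyrazolanthrone 10000 nM and 3.2% and 1.56% at 100 nM, 2.51% and 1.44% in Nilotinib 1000 nM, 2.21% and 0.948%, 1.2% and 0.318%, and 0.0594% and 0.0054% in MK-2206 at 10000 nM, 1000 nM and 100 nM, and 0% in Pyrazolanthrone 1000 nM and at every dose of Miglitol. Nilotinib 100 nM had 5.5% of genes higher. Some sums over members lay outside DMSO all the same. In Pyrazolanthrone 10000 nM the 19S genes held 0.419%, 0.439% and 0.432% of counts, below every DMSO well (lowest 0.441%). The core share there, 0.272% to 0.287%, lay within the DMSO range. In MK-2206 10000 nM 9 of 37 members lay above the median gene. The members held 0.8307%, 0.8868% and 0.8325% of TPM there, against 0.843% to 0.969% in DMSO. These shares were not tested.

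Of 41 other genes of the pathway, from lists of ubiquitin genes, assembly chaperones, activators, regulators and antigen presentation, 18, 16 and 18 were higher and 5, 8 and 12 lower in Homoharringtonine at the 3 doses, and 14, 19 and 20 higher and 11, 9 and 11 lower in Triptolide under TMM. Of all genes, 31.1%, 35% and 36.7% were higher and 32.3%, 33.4% and 37.2% lower in Homoharringtonine, and 24.5%, 28.8% and 32.2% higher and 32.3%, 38.6% and 39.7% lower in Triptolide. NFE2L1 fell strongly in Homoharringtonine and was higher in Triptolide under TMM. It was at 492 to 636 CPM in DMSO, 72.7 to 85.3 CPM in Homoharringtonine 1000 nM and 993 to 1124 CPM in Triptolide 1000 nM, with no overlap. The log2 fold changes were −2.44, −2.84 and −2.87 in Homoharringtonine and, under TMM, 1.17, 0.95 and 1.0 in Triptolide. At 1000 nM the 0.95 is smaller than the shift of −2.47 by which mitochondrial scaling moved the median of all genes. An opposite direction of NFE2L1 is therefore tied to TMM scaling. NFE2L2, a related factor of the oxidative stress response, ran the other way, at 1.45, 1.51 and 0.92 in Homoharringtonine, where the last was −0.01 with the GC covariate, and −0.79, −2.53 and −3.16 in Triptolide. DDI2, the protease that activates NFE2L1 protein, fell in Triptolide at 1000 nM and 10000 nM (−1.90 and −2.01), and NGLY1, which removes its sugars, rose in Homoharringtonine (0.82, 1.28 and 1.76).

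The polyubiquitin gene UBB passed the test in Triptolide (0.84, 0.64 and 0.72 under TMM) and at no dose of Homoharringtonine. Of the 5 chaperones that assemble the core, PSMG2 rose in Homoharringtonine (0.62, 0.69 and 0.72, the last 0.05 with the GC covariate) and fell in Triptolide (−1.61, −1.22 and −1.50), PSMG3 fell in both (−0.32, −0.80 and −1.08, and −0.52, −1.0 and −1.29), and POMP, the maturation factor of the beta ring, passed only in Homoharringtonine 10000 nM (0.60, and −0.04 with the covariate). The activator genes PSME1 and PSME2, partners of the immunoproteasome, were at 1.04 and 0.98 in Triptolide 1000 nM under TMM, and the activator PSME4 rose in Homoharringtonine at 1000 nM and 10000 nM (0.89 and 1.26, or 0.12 and 0.03 with the covariate). ADRM1, a ubiquitin receptor of the 19S particle outside the symbol rule, rose in Homoharringtonine by 1.03, 1.07 and 0.53 and fell in Triptolide at 1000 nM and 10000 nM (−0.31 and −0.55).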

How the data were processed

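Population RNA-seq libraries of 72 wells were used, grouped by the compound and dose of the sample labels, which give the middle dose as 1000 nM (the study's methods give another value). TruSeq stranded mRNA libraries were made after poly(A) selection. The authors ran RSEM on GRCh38; its version and the annotation release are not given in the sources used here. The expected counts deposited for each gene are estimates of its reads, neither normalised nor always whole. TPM and FPKM, also deposited, had been scaled by the authors for gene length and library. Each file lists 60371 genes, and symbols, biotypes and positions came from GENCODE release 44, which held 56104 of the identifiers.

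After rounding, the expected counts went into edgeR 4.0.16 in R 4.3.3 (TMM scaling, filterByExpr with a minimum count of 10, quasi-likelihood test, Benjamini-Hochberg adjustment over all genes), with DESeq2 1.42.0 as an alternative. A call is an adjusted p under 0.05. The wells of each treatment were set against the 18 vehicle wells and Triptolide with Homoharringtonine at each dose, while trends on log10 dose were fitted over the treated wells. Values of single wells are TMM-normalised CPM computed from the counts, and levels between genes are TPM. On simulated counts edgeR recovered 200 of 200 changed genes with 16 false calls among 18180 genes for Homoharringtonine 1000 nM against DMSO, 198 of 200 with 10 false calls among 17362 for the Triptolide dose trend, and 176 of 200 with 12 false calls among 18227 for the difference of dose trends. The changed genes were well expressed, with median estimates of 1.49 in log2 and 0.74 per 10-fold dose, larger than most member values here. All genes had the same dispersion, wells had no GC slope differences, and far fewer genes changed than were called in these data. These rates therefore do not carry over to the real comparisons.

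The members, gene lists and tests were chosen with earlier results of these data known. Given in full were the catalytic subunits, PSMD14, PSMD4, PSMD1, PSMD2, and in each other subunit group the members with the highest and lowest log2 fold change at 1000 nM of both compounds. PSMD6, PSMD7, PSMB3, PSMA2, PSMA3, PSMA4 and the activator PSME2 fell outside this rule and are described because of their values. Of the other pathway genes the rule names NFE2L1, POMP, PSME4, UBB and those called at 1000 nM of either compound beyond a log2 fold change of 1 or −1; some genes it names are not reported here. The fits with the GC slope as a covariate and the counts on the TPM scale were chosen after seeing the data. No pair of libraries agreed within sampling noise (207 pairs within groups, lowest chi-square per degree of freedom 1.35). Labels give replicate numbers but no shared batch, so the fits carry no block. Of 36 listed pseudogene copies of members, 2 held over 1% of the counts of copy and gene together, PSMC1P1 (1.38%) and PSMD10P2 (1.01%). In TPM, PSMC1P5 had a median of 25.6 in DMSO beside 229 for PSMC1, with 0.254% of their counts.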

Additional observations from a re-analysis of the deposited data

Results flagged for a closer look

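The dose trends of Triptolide and Homoharringtonine, fitted on log10 dose over 9 wells each, differed for 16 members by a test of the difference itself (edgeR, adjusted p under 0.05). Values are differences in log2 per 10-fold dose, Triptolide minus Homoharringtonine, under TMM scaling.

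The widest was PSMD12, a lid subunit, at −1.07 (edgeR adjusted p = 0.0014), with slopes of −0.81 in Triptolide and 0.31 in Homoharringtonine. PSMD6, another lid subunit, differed by −0.45 (slopes −0.36 and 0.14). These were the only members called with a lower slope in Triptolide (3 at unadjusted p under 0.05 by edgeR, and 3 by DESeq2).

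Among the 14 with a higher slope in Triptolide, PSMD2, the base scaffold, had the largest difference at 0.58, with slopes of 0.16 and −0.36, and PSMC5, an ATPase, followed at 0.50 (0.07 and −0.37). The other ATPases were PSMC1 (0.39), PSMC3 (0.34) and PSMC2 (0.31). In the core, PSMB7 differed by 0.45, PSMB3 by 0.43, PSMB5 by 0.42, PSMB2 by 0.41, PSMB4 by 0.38 and PSMA7 by 0.35. In the lid and at the ubiquitin receptor, PSMD4 differed by 0.42, PSMD3 by 0.41 and PSMD11 by 0.37. Without replicate 3, 2 of the 14, PSMC5 and PSMD2, were called, and of the 2 with a lower slope PSMD12 alone.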

How the results depend on the processing

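Of 370 counts and shares recomputed under alternatives, 271 stayed within 1.5 times of the reported count (or 1 SD of a share) and 99 did not. Of 480 values of single genes, 389 kept direction and call, 44 lost and 25 gained the call, and 22 changed direction. For changes of call and count the cause was not tested. Values are members called, of 37.

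With DESeq2, calls became 3 in Pyrazolanthrone 10000 nM, 1 in Pyrazolanthrone 100 nM, 5 in Nilotinib 10000 nM and 2 in Nilotinib 100 nM, and 2 members rose and 2 fell along the Triptolide dose. With no filter on low counts, calls were 1 in Nilotinib 10000 nM and 0 in Nilotinib 100 nM, 2 fell along the Triptolide dose and 4 had a lower slope in Triptolide. Without libraries under 10000000 counts, Pyrazolanthrone 10000 nM had 2 calls and the Triptolide dose trend 2 higher and 3 lower.

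With library sizes alone in place of TMM, Triptolide had 13 higher and 10 lower at 10000 nM and 12 higher and 11 lower at 1000 nM. Homoharringtonine then had 10 higher and 5 lower at 1000 nM and 7 lower at 100 nM, 15 members were lower in Triptolide than in Homoharringtonine at 10000 nM, 2 fell along the Triptolide dose, 5 rose and 8 fell along the Homoharringtonine dose, and the trends differed upward for 2 and downward for 5. Calls were 1 in Pyrazolanthrone 10000 nM and 2 in Nilotinib 100 nM. In Triptolide 1000 nM this reversed PSMB8 (−0.007), PSMB1 (−0.10), PSMD3 (−0.27) and PSMD9 (−0.15).

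With mitochondrial scaling, Triptolide had 0 higher at every dose and 33, 37 and 37 lower at 100 nM, 1000 nM and 10000 nM, Homoharringtonine had 8 higher at 100 nM and 7 higher and 1 lower at 1000 nM, and against Homoharringtonine 0 were higher in Triptolide and 34, 35 and 36 lower. In Triptolide 1000 nM it reversed PSMB5 (−1.86), PSMB6 (−1.52), PSMB7 (−1.95), PSMB8 (−2.04), PSMB9 (−2.36), PSMB10 (−1.08), PSMD4 (−1.84), PSMD1 (−2.17), PSMD2 (−1.51), PSMA7 (−1.57), PSMA1 (−1.82), PSMB4 (−1.53), PSMB1 (−2.13), PSMC3 (−1.36), PSMC5 (−1.77), PSMD8 (−1.63), PSMD3 (−2.31) and PSMD9 (−2.17). In TPM in place of CPM, 5, 4 and 7 members lay above all DMSO wells in Triptolide and 5, 10 and 11 below (2.63%, 4.16% and 6.05%, and 24.8%, 31.2% and 36.2% of all genes), and in Homoharringtonine 7 lay above at 100 nM and 4 below at 10000 nM (12.1% and 19% of all genes). As shares of TPM the members held 0.928% in DMSO, 0.977%, 0.943% and 0.942% in Triptolide and 1.02%, 1.02% and 0.999% in Homoharringtonine at the rising doses. The median member was at 120 FPKM in DMSO, against 164 TPM.

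With the GC slope as a covariate, calls were 2 in Pyrazolanthrone 100 nM, 5 in Nilotinib 10000 nM, 5 in Nilotinib 100 nM and 1 in MK-2206 10000 nM. Homoharringtonine had 6 lower at 1000 nM and 6 at 100 nM, and 26 fell along its dose. Between the compounds, 6 were lower in Triptolide at 100 nM, 20 higher at 1000 nM and 5 lower at 10000 nM, and along the Triptolide dose 3 rose and 2 fell.

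No pairing of wells by replicate number was seen, in a comparison limited to DMSO wells numbered 1 to 3 and libraries over 10000000 counts. Deviations of treated wells from their group means had a mean correlation of −0.06 with those of DMSO wells of the same number. With those of the other DMSO wells numbered 1 to 3 it was 0.026. In 0 of 21 pairs of groups did every same-numbered pair exceed 0.1. Each pair of groups gave at most 3 such pairs, with single correlations from −0.883 to 0.876. A batch shared with the remaining DMSO wells could not be seen, so pairing is not excluded. A fit with the replicate number as a replicate block, which uses DMSO replicates 1 to 3 alone, gave 18 calls in Pyrazolanthrone 10000 nM, 18 in Nilotinib 10000 nM, 27 in Miglitol 10000 nM and 0 in Nilotinib 100 nM. It gave 9 higher in Homoharringtonine 1000 nM, 5 lower at 100 nM and 7 higher in Triptolide than in Homoharringtonine at 100 nM.

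Leaving out 1 treated well per group gave 0 to 2 calls in Pyrazolanthrone 100 nM, 0 to 1 in Nilotinib 10000 nM and 0 to 14 in Nilotinib 100 nM (14 without replicate 1). Triptolide 100 nM had 2 to 5 lower (2 without replicate 1) and Homoharringtonine 1000 nM 2 to 7 lower (7 without replicate 1). Against Homoharringtonine, Triptolide had 7 to 11 higher and 7 to 17 lower at 100 nM and 6 to 17 higher at 1000 nM (6 without replicate 2). Along dose, Triptolide had 0 to 1 higher and 1 to 2 lower, Homoharringtonine 0 to 3 higher and 2 to 15 lower, and the trends differed upward for 2 to 11 and downward for 1 to 3. Of the calls named at 1000 nM, Triptolide lost PSMA1 and PSMB1 without replicate 3, and Homoharringtonine lost PSMB9 without replicate 3, PSMD4, PSMD8 and PSMD3 without replicate 1, and PSMD1, PSMA5 and PSMD5 without replicate 2 or 3. Depth limits the Triptolide values at 100 nM, where 1 of 3 libraries had 70767 counts.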

Other observations

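Antigen presentation uses peptides cut by the proteasome, and its genes were among those measured beside the subunits. IRF1, a transcription factor that drives immunoproteasome and antigen presentation genes, was at 15.3 to 33.0 CPM in DMSO, 133 to 183 CPM in Homoharringtonine 1000 nM and 0.128 to 0.459 CPM in Triptolide 1000 nM. The 3 groups did not overlap. Its log2 fold changes were 1.5, 2.84 and 2.87 in Homoharringtonine at the rising doses and −6.26 and −6.56 in Triptolide at 1000 nM and 10000 nM (edgeR adjusted p = 8.0e-16 and 1.7e-17), while at 100 nM of Triptolide it was at 1.08 under TMM. Under TMM in Triptolide 1000 nM, the class I genes HLA-B and HLA-C were at 1.28 and 1.29 and their partner B2M at 1.16, all called. Of these HLA-B (0.63) and B2M (0.72, or 0.18 with the GC covariate and then not called) were also called in Homoharringtonine 1000 nM, and HLA-C (0.24) was not. TAP2, part of the peptide transporter, fell in Homoharringtonine at 1000 nM and 10000 nM (−1.85 and −2.03) and was at 0.74 and 1.06 in Triptolide under TMM.

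Among genes that deliver ubiquitinated proteins, UBQLN2 fell in Triptolide, from 47.6 to 72.8 CPM in DMSO to between 6.64 and 8.99 CPM at 1000 nM, with log2 fold changes of −1.20, −2.98 and −2.95, and was at −0.03, −0.04 and −0.11 in Homoharringtonine, none called. UBQLN1 rose in Homoharringtonine (1.12, 1.18 and 1.12) and UBQLN4 fell (−0.56, −1.04 and −1.25). UBA6, a ubiquitin-activating enzyme, rose in Homoharringtonine 1000 nM (1.24), and was at 0.40 and not called with the GC covariate. PSMG4, a core assembly chaperone, fell at 1000 nM of both compounds (−1.13 in Triptolide and −1.0 in Homoharringtonine). Each upward Triptolide value given here at 1000 nM is smaller than the shift of −2.47 by which scaling on mitochondrial mRNAs moved the median of all genes.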
